A study of Mus musculus with 11 samples.

Results

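The rows examined were the microRNA precursor rows of a mouse hippocampus RNA sequencing series: every row of the count files whose symbol begins with Mir or Mirlet and a number, without host gene symbols ending in hg and without Mir6236, and with at least 10 counts summed over all 11 libraries. This left 296 of 1173 microRNA rows, among 24421 gene rows in all. Of the other microRNA rows, 532 had no count in any library and 345 had 1 to 9 counts. The sums that chose the rows were low, with a median of 27.5 counts and a highest of 1048 counts for Mir568, and 217 rows had a sum under 50. Just inside the threshold lay 9 rows with a sum of 10, such as Mir181c and Mir154, and just outside it 16 rows with a sum of 9, such as Mir674 and Mir323.

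The study compared offspring of mothers that received particulate matter (PM) with offspring of mothers that received normal saline (vehicle) during pregnancy. Both were given through the nose on gestational days 9, 12 and 15, the PM at 200 µg per kg, and the pups were born on day 21. Hippocampi were taken at 14 to 18 weeks of age. The labels name no strain, genotype or sex. The series was deposited in 2 sets, and the treatment protocol is given only for the later one. It was taken to hold for both sets. One had 3 vehicle and 3 PM libraries (replicates 1 to 3), and the later one had 2 vehicle libraries (4 and 5) and 3 PM libraries (4 to 6), which made 5 vehicle and 6 PM libraries. Nothing in the labels ties a library to its own animal or litter, so a p-value here speaks of spread among libraries that could be partly technical.

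MicroRNAs are short RNAs that guide Argonaute proteins to messenger RNAs, mostly through the seed, the bases near the 5′ end of the mature strand. They are cut from a hairpin, which lies in a longer primary transcript, by Drosha with Dgcr8 in the nucleus and then by Dicer1 in the cytoplasm. Many hairpins lie in introns of protein-coding genes and others in exons of non-coding RNAs or in long clusters. In the hippocampus, miR-128, miR-137, miR-138 and miR-9 are among the best known neuronal microRNAs. The libraries here were made for long RNA with 100 bp paired reads, so a count is a fragment assigned to the annotated hairpin. Such a count is no measure of mature microRNA. The hairpins were 55 to 139 bases long, with a median of 85. Fragments that the counting left ambiguous between genes are in no row. Per library, the ambiguous share ran from 0.538% to 0.582% for vehicle and from 1.21% to 1.42% for PM. Its part in the rows of hairpins that lie in exons was not tested.

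Mature sequences from RefSeq (GRCm38.p6) were matched by symbol for 261 of the 296 rows and are shown 5′ to 3′ for those the results turn on. Capitals mark the seed, bases 2 to 8. The first set holds the neuronal microRNAs whose rows could be tested; several of them come from more than 1 locus.
miR-128-3p (Mir128-1): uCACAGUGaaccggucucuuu
miR-137-3p (Mir137): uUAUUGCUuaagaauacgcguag
miR-138-5p (Mir138-1 and Mir138-2): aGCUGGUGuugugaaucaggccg
miR-218-5p (Mir218-2): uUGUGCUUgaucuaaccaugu
miR-7a-5p (Mir7-1): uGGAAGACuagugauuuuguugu
miR-9-5p (Mir9-2): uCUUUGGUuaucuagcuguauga
The next set holds the mature strands of the 3 rows that were higher in PM libraries.
miR-703 (Mir703): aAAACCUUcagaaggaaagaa
miR-3061-5p (Mir3061): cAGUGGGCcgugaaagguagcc
miR-3064-5p (Mir3064): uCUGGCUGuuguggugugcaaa
The last set holds 2 let-7 strands that share a seed and lie near each other on chromosome 13.
let-7d-5p (Mirlet7d): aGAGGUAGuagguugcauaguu
let-7f-5p (Mirlet7f-1): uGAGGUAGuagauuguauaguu
Among the 296 rows the let-7 seed GAGGUAG was held by 6 rows, CUUUGGU by Mir9-1, Mir9-2 and Mir9-3, GCUGGUG by both miR-138 loci and CACAGUG by both miR-128 loci. Hairpins show how little of a precursor the mature strands leave. The hairpin of Mir128-1 (chr1:128202361-128202430, plus strand) lies in an intron of R3hdm1, and that of Mir379 (chr12:109709060-109709125, plus strand) in the imprinted cluster between Meg3 and Mirg. Capitals here mark both mature arms.
Mir128-1 hairpin: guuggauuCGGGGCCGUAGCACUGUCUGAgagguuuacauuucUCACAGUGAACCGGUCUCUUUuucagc
Mir379 hairpin: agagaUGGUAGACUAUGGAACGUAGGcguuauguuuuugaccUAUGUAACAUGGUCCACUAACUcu

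Between 6012116 and 12496651 counts fell on genes in a vehicle library, and between 10938521 and 17763893 in a PM library. Counts with no feature, which fell in no annotated exon as counted, made up 61.4% ± 0.461 (SD, n = 5) of all counts in vehicle and 26.0% ± 6.46 (SD, n = 6) in PM libraries (exact permutation test, two-sided, p = 0.0043, the smallest this test can give here). The share was 20.4% ± 1.38 (SD, n = 3) in PM libraries of the first set and 31.7% ± 2.34 (SD, n = 3) in those of the second. Summed markers, in CPM (counts scaled to a library of 1000000 counts after TMM normalization), were 7092 to 7880 in vehicle and 6044 to 7530 in PM libraries for 8 neuron markers, and 909 to 1077 against 553 to 667 for 6 hippocampal markers. They were 6816 to 7222 against 2798 to 5275 for 6 astrocyte markers, 3734 to 4751 against 4047 to 9299 for 6 oligodendrocyte markers, 163 to 185 against 199 to 281 for 6 microglia markers and 98.9 to 120.3 against 124.5 to 219.3 for 5 endothelial markers. Choroid plexus markers ranged from 75.2 to 1287 and from 34.2 to 2497, and red cell markers from 15.0 to 18.1 and from 2.19 to 8.95, with 6 of 7 red cell markers at 0 in all libraries. These sums follow the most abundant genes of a list, and single markers went both ways in several lists. By edgeR's test at an adjusted p under 0.05, where 32.7% of all genes tested were higher and 36.4% lower in PM, 3 of 8 neuron markers were higher and 3 lower. Of the 6 astrocyte markers 2 were higher and 2 lower, with a median log2 fold change of -0.06, and in the first set 4 were higher and 1 lower. Of the 6 hippocampal markers 2 were higher and 3 lower, with log2 fold changes from -2.45 to 2.55. In bulk tissue, fewer cells of a type and less RNA per cell cannot be told apart. The part of the no-feature share and of these markers in the results below was not tested.

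Set against 1000000 gene counts, the microRNA rows summed to 199 ± 3.23 (SD, n = 5) for vehicle and to 76.7 ± 39.5 (SD, n = 6) for PM. The 3 PM libraries of the first set lay between 34.1 and 49.6 and those of the second set between 107.4 and 119.9, while the vehicle libraries lay between 195.5 and 204.5. Every PM library was thus below every vehicle library, and the PM libraries fell into separate ranges by set. Per 1000000 counts with no feature the order was not the same: vehicle libraries had 105.0 to 114.3 and PM libraries 107.3 to 231.7. Of the 296 rows, 228 to 266 had a count in a vehicle library and 100 to 221 in a PM library, where gene counts were mostly higher but counts of all kinds were not (18076259 to 36642509 in vehicle and 18988252 to 24865355 in PM).

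Few of the rows were deep enough to test one by one. After the filter on low counts (edgeR's filterByExpr, which here asks for 0.800 CPM in enough libraries), 48 of the 296 rows were among the 14982 genes tested. Of these, 24 reached that level in no PM library and so passed through the vehicle group, 2 in no vehicle library, and 22 in libraries of both groups. In edgeR's quasi-likelihood fit with the deposit set as a covariate, 3 of the 48 rows were higher in PM (background 32.7% of all genes tested) and 37 were lower (background 36.4%), at a Benjamini-Hochberg adjusted p under 0.05 over all genes. In all 40 passed (background 69.1%) and 8 did not. The median log2 fold change was -2.71, against -0.045 over all genes tested. A row that passed the filter through 1 group had to differ, so these counts and this median only describe the rows that passed. In 29 rows the highest PM library was lower than the lowest vehicle library (background 28.1%), and in 3 rows the order was the reverse (background 24.3%).

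A fit with no filter, over 20519 rows with a count, takes in all 296. There, 16 rows were higher in PM (background 27.1%), 165 were lower (background 27.4%) and 115 did not pass, with a median log2 fold change of -1.98 against -0.042 over all rows. The background rows needed only some count, while the 296 rows had at least 10, so these shares are not on equal terms. Pooled over libraries, 234 of the 296 rows had a lower CPM in PM. The PM libraries had no count at all for 19 rows and the vehicle libraries none for 5. Each of these rows met the count rule through the other group alone.

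**Figure D1:**
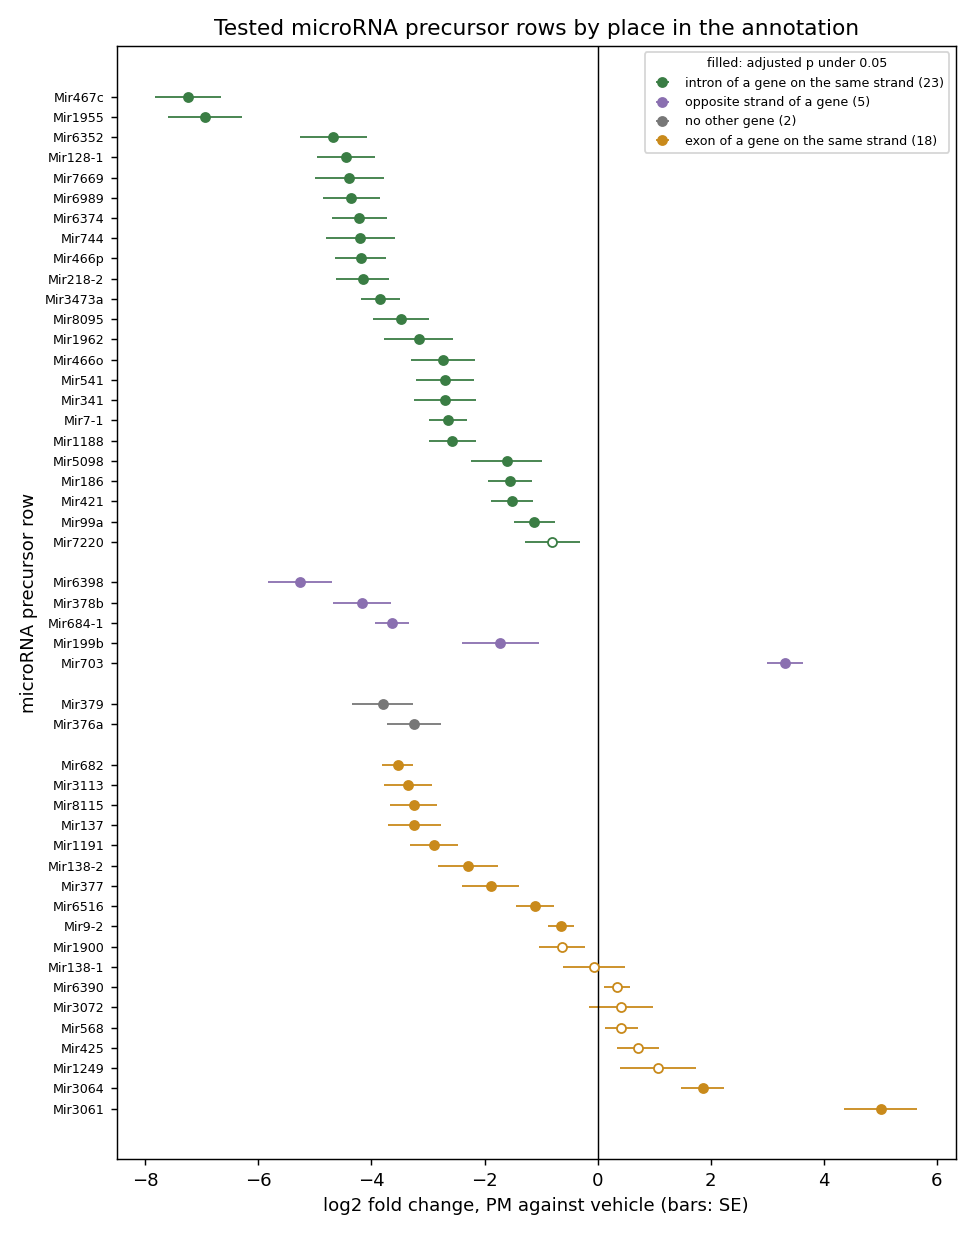
Log2 fold change of PM against vehicle with its standard error (x axis) for the 48 tested microRNA rows (y axis), grouped by where the hairpin lies; filled points passed an adjusted p under 0.05. The 23 intron rows all lie below 0, and the rows above 0 lie in exons, apart from Mir703.

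The rows are described next by where the hairpin lies in the annotation (GENCODE M21). Of the 296 hairpins, 152 lay in an intron of a gene on the same strand, 65 in an exon of one, 49 in no other gene and 30 only opposite a gene. In the fit with no filter, 97 of the 152 intron rows were lower and 4 higher in PM, with a median log2 fold change of -2.41, where 27.4% of all 20519 rows were lower and 27.1% higher. Of the 65 exon rows 23 were lower and 9 higher, with a median of -0.54, and within these the 20 rows in a UTR or coding part of a protein-coding transcript had 6 lower and 5 higher. Of the 49 rows in no other gene 24 were lower and 1 higher, and of the 30 opposite rows 21 were lower and 2 higher. Among rows that passed the filter, 22 of 23 intron rows were lower and 0 higher by edgeR (backgrounds 36.4% and 32.7%). The counts were also 22 and 0 at an unadjusted p under 0.05. Of these 23 rows, 14 reached the filter level in no PM library and so had to fall. DESeq2 called 91 lower (background 31.1%) and 2 higher (background 27.6%) among all 152. The difference between classes was not tested.

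Summed over a class, intron rows took 98.7 ± 4.19 counts per 1000000 gene counts in vehicle (SD, n = 5), against 9.28 ± 3.05 in PM libraries of the first set and 41.6 ± 2.87 in those of the second (SD, n = 3 each). The 20 rows in coding transcripts took 15.2 ± 3.36 in vehicle and 15.9 ± 4.44 in PM, and the groups overlapped. Per 1000000 counts with no feature, intron rows took 54.0 ± 1.99 in vehicle, 32.0 ± 10.6 in the first PM set and 78.3 ± 6.86 in the second, so on that scale the PM sets lay on opposite sides of vehicle.

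**Figure D2:**
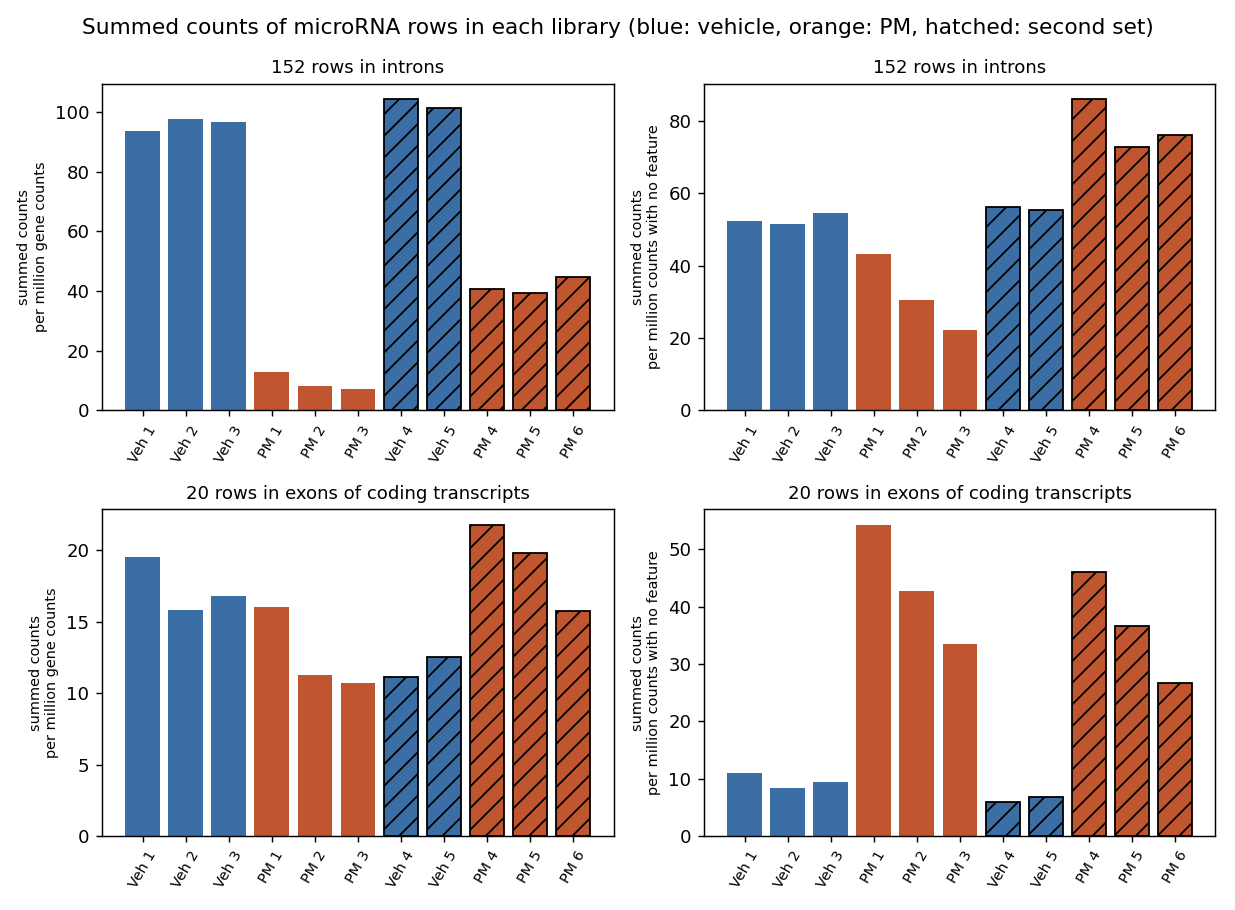
Summed counts of the 152 intron rows (top) and of the 20 rows in exons of coding transcripts (bottom) in each library, per 1000000 gene counts (left) and per 1000000 counts with no feature (right); bars start at 0. Intron rows are lower in all PM libraries per 1000000 gene counts, but on opposite sides of vehicle in the sets per 1000000 counts with no feature.

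Rows were also set beside the genes that hold them, since a hairpin and its host on the same strand usually share a primary transcript. A row that lies only opposite a gene does not share its transcript, but that gene was counted here as its host. A host gene was tested for 38 of the 48 rows, in 33 host genes, and 30 of the rows had a lower log2 fold change than their host. Of the 38, 20 passed the filter with no PM library at its level and so had to fall, and all 20 lay below their host. Of the 17 rows with libraries of both groups at that level 10 lay below, with a median difference of -0.58. Among the 23 intron rows, in 20 hosts, 21 lay below their host, which were 14 of 14 with no PM library at that level and 7 of 9 with libraries of both groups. For exon rows it held for 5 of 11, and for opposite rows for 4 of 4, of which 3 each had no PM library at the filter level. These counts describe the rows that passed and support nothing about the others. With no filter, 125 intron rows lay below their host and 21 above, with medians of -2.57 and -0.46. Rows on the strand of 1 host share its transcript and are not independent, and the difference between row and host was not tested.

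**Figure D3:**
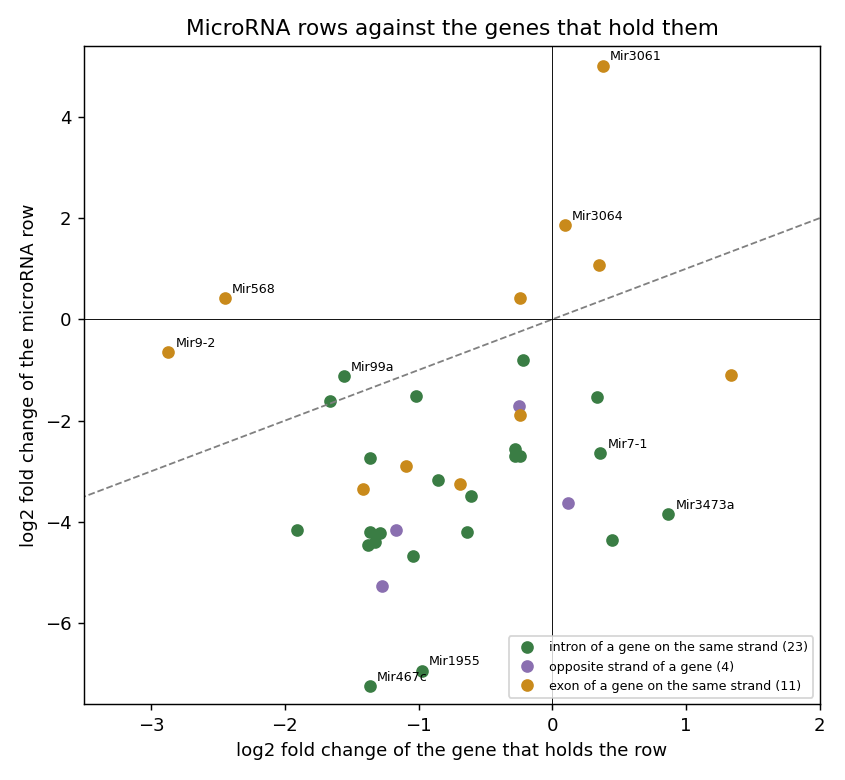
Log2 fold change of each tested microRNA row (y axis) against that of the gene that holds it or lies opposite it (x axis), 38 rows. The dashed line marks equal values. Intron rows lie below the line in 21 of 23 cases, of which 14 passed the filter through vehicle alone, while Mir3061, Mir3064, Mir568 and Mir9-2 lie above it.

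Mir128-1, one of 2 sources of the neuronal miR-128, had 2.38, 3.71, 0.994, 4.90 and 3.19 CPM in vehicle replicates 1 to 5. The PM libraries had a lowest of 0, a median of 0.0962 and a highest of 0.304 CPM, so the groups did not overlap (background 28.1%). No PM library reached the filter level, so Mir128-1 passed through vehicle and had to fall. Its separation and p-value only describe it. It fell with a log2 fold change of -4.45 (SE 0.51, edgeR adjusted p = 3.46e-06), while its host R3hdm1 fell with -1.38 (SE 0.22). The other source, Mir128-2, in an intron of Arpp21, held 10 counts in vehicle and 1 in PM.

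Mir218-2 lies in an intron of Slit3, which encodes an axon guidance ligand. It had 1.11, 1.36, 1.17, 2.12 and 1.10 CPM in vehicle and 0, 0.0746 and 0.148 CPM as the lowest, median and highest of PM. All PM libraries were lower (background 28.1%), with a log2 fold change of -4.16 (SE 0.47, edgeR adjusted p = 3.36e-06) beside -1.91 (SE 0.17) for Slit3. Mir7-1, in an intron of Hnrnpk, a gene for an RNA-binding protein, had 2.22, 2.44, 2.35, 1.96 and 1.87 CPM in vehicle and 0.118, 0.402 and 0.620 CPM in PM. It fell by 2.64 on the log2 scale (SE 0.33, edgeR adjusted p = 9.45e-06), while Hnrnpk rose by 0.36 (SE 0.093, edgeR adjusted p = 0.00357). Row and host thus moved in opposite directions. Mir218-2 and Mir7-1 reached the filter level in no PM library and so had to fall. Their falls, p-values and contrast with the host only describe these rows.

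Both Mir467c and Mir1955 reached the test without a single PM count, so they passed through vehicle and had to fall. Mir467c, in an intron of Sfmbt2, had 1.5, 1.81, 1.63, 1.47 and 1.32 CPM in vehicle, 78 counts in all, and 0 in every PM library. It was at least 44.7-fold lower in PM, against a floor of 3 counts over the group. Mir1955, in an intron of Phf21a, had 0.871, 1.36, 1.08, 1.63 and 1.21 CPM in vehicle, 59 counts in all, and 0 in every PM library, at least 33.8-fold lower. Both hosts stayed well above 0, with log2 fold changes of -1.37 for Sfmbt2 and -0.98 for Phf21a.

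The other largest falls were Mir6398, opposite Macf1, with a log2 fold change of -5.26 (SE 0.57), Mir6352 in Epha4 with -4.68 (SE 0.59), Mir7669 in Ubap2l with -4.39 (SE 0.60), Mir6989 in Map4k2 with -4.36 (SE 0.51), Mir6374 in Tet3 with -4.21 (SE 0.49), Mir744 in Map2k4 with -4.19 (SE 0.61) and Mir466p in Sfmbt2 with -4.19 (SE 0.46). Their edgeR adjusted p-values ran up to 3.69e-05, that of Mir744. In each of these 7 rows the highest PM library lay below the lowest vehicle library (background 28.1%). They were picked as the largest falls, and some, such as Mir7669, reached the filter level in no PM library. Their separation therefore only describes them.

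**Figure D4:**
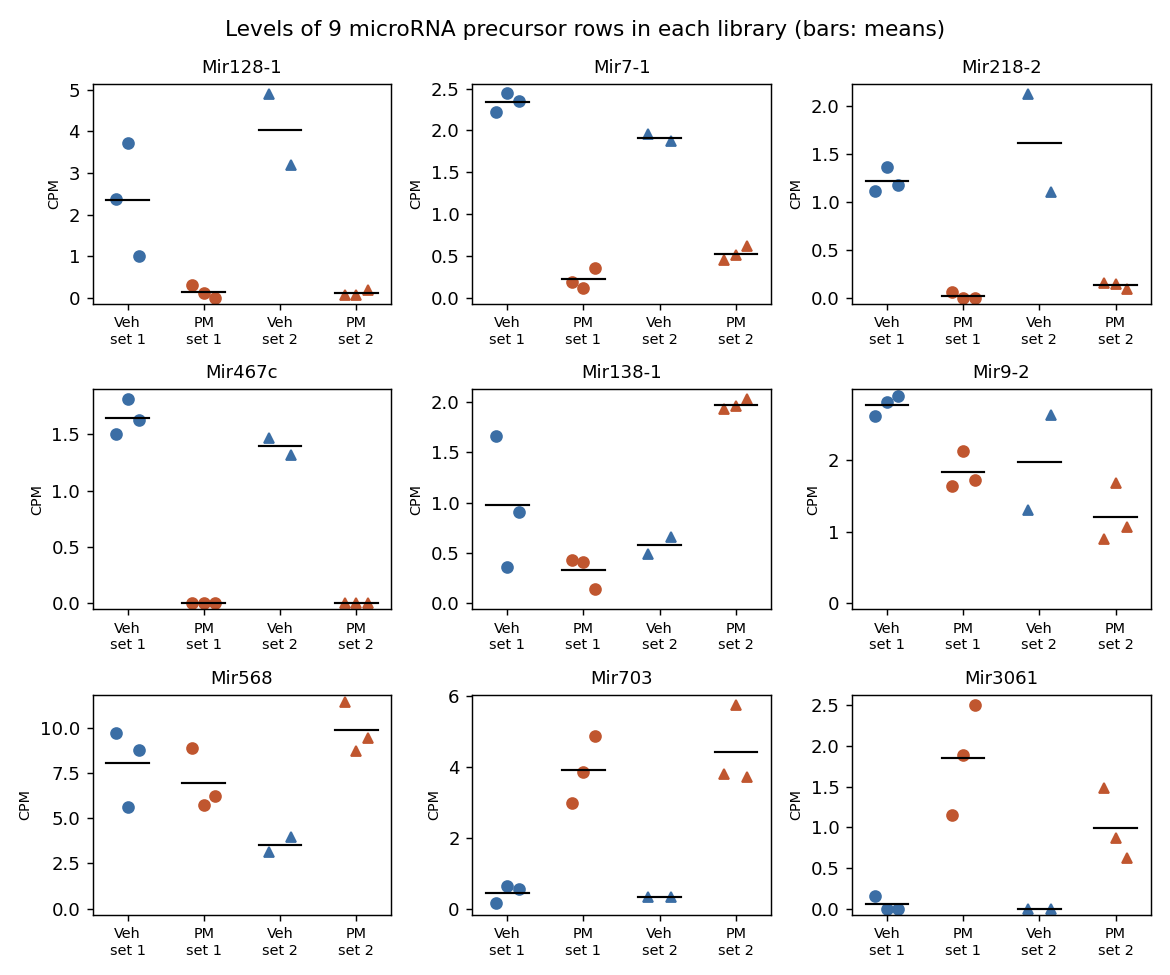
CPM (y axis, linear, from 0) of 9 microRNA rows in each library, by group and set; points are libraries and bars the mean. Mir128-1, Mir7-1, Mir218-2 and Mir467c are lower in all PM libraries, Mir703 and Mir3061 higher in all, and Mir138-1 is lower in PM in the first set and higher in the second.

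The 3 rows that rose all stood apart from vehicle in every PM library (background 24.3%). Mir3061 and Mir703 reached the filter level in no vehicle library, so they passed through PM and had to rise. Their separation and p-values only describe these rows. Mir3061 lies in a UTR of Ppp2ca, which encodes a catalytic subunit of protein phosphatase 2A. It had 2 counts in vehicle, both in replicate 1 (0.158 CPM), and 125 in PM, with 0.620, 1.32 and 2.51 CPM as the lowest, median and highest. Pooled over libraries it was 36.4-fold higher in PM (95% counting interval 9.86 to 304), and its log2 fold change was 5.01 (SE 0.65, edgeR adjusted p = 1.2e-05), beside 0.38 (SE 0.086) for Ppp2ca. Genes on the opposite strand also overlap it, and reads of the strands cannot be told apart.

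Mir703, opposite Cfap299 on chromosome 5, had 0.158, 0.634, 0.542, 0.327 and 0.330 CPM in vehicle and 2.98, 3.81 and 5.75 CPM in PM. Its log2 fold change was 3.32 (SE 0.32, edgeR adjusted p = 7.46e-07). Mir3064 spans a coding part and UTR of Ddx5, an RNA helicase that acts with Drosha. It had 0.554, 0.543, 0.904, 0.163 and 0.330 CPM in vehicle and 1.07, 1.87 and 2.86 CPM in PM. It rose by 1.86 on the log2 scale (SE 0.38, edgeR adjusted p = 0.000707), while Ddx5 had 0.09 (SE 0.068, edgeR adjusted p = 0.231). With no filter the higher rows also took in Mir3960 and Mir2861 in a UTR of Cdk9, with log2 fold changes of 3.02 and 3.89.

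The most abundant rows were not the best known microRNAs. Mir682, in an exon of the processed pseudogene Gm4149 and so uncertain between copies, had 17.2, 20.1, 14.9, 13.6 and 15.4 CPM in vehicle and 0.445, 0.971 and 2.9 CPM in PM, and fell by 3.54 on the log2 scale (SE 0.28, edgeR adjusted p = 1.15e-07). Mir568, in a UTR of Zbtb20, a transcription factor of hippocampal neurons and astrocytes, had 9.74, 5.61, 8.77, 3.11 and 3.96 CPM in vehicle and 5.73, 8.80 and 11.4 CPM in PM. The groups overlapped and the log2 fold change of 0.42 (SE 0.29) did not pass (edgeR adjusted p = 0.212), while Zbtb20 fell by 2.45 (SE 0.20). In Mir568 the sets differed, with -0.21 in the first and 1.46 in the second (edgeR adjusted p of the difference = 0.003).

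Among the other abundant rows, Mir1188 and Mir341 in introns of Rian had log2 fold changes of -2.57 (SE 0.41) and -2.70 (SE 0.55). Mir684-1 opposite Nup35 had -3.63 (SE 0.30) and Mir3473a in an intron of Syap1 had -3.85 (SE 0.35). All 4 were called lower (background 36.4%) and had PM libraries below all vehicle libraries (background 28.1%). Mir99a, in an intron of its host gene Mir99ahg, had 1.82, 2.72, 2.26, 1.63 and 2.75 CPM in vehicle and 0.365, 1.04 and 2.38 CPM in PM. The groups overlapped, and the log2 fold change of -1.12 (SE 0.36, edgeR adjusted p = 0.0144) turned to 1.11 when libraries were scaled by no-feature counts, a scaling that moved the median of all genes to 2.21. Scaled by all counts of the file, Mir99a had -0.19 and did not pass (edgeR adjusted p = 0.638), nor did it with no set term (0.0741) or in the second set alone (0.609); over all alternatives its adjusted p ran from 0.00102 to 0.638. Scaled by no-feature counts, Mir1188, Mir341, Mir7-1 and Mir138-2 no longer passed. Mir6390 in an exon of Gm6145 did not pass, with 0.35 (SE 0.23, edgeR adjusted p = 0.19).

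Of 19 rows on a list of brain-enriched microRNAs, 7 passed the filter, of which 0 were higher and 6 lower (backgrounds 32.7% and 36.4%). Mir128-1, Mir218-2, Mir7-1, Mir137 and Mir138-2 reached the filter level in no PM library and so had to fall. Their falls and p-values only describe these rows. With no filter, 0 of 19 were higher and 10 lower by edgeR (backgrounds 27.1% and 27.4%), 0 and 11 at an unadjusted p under 0.05, and DESeq2 also gave 0 and 10 (backgrounds 27.6% and 31.1%). Mir137, in an exon of a non-coding RNA, had 1.35, 1.63, 1.08, 2.12 and 1.76 CPM in vehicle and 0, 0.170 and 0.364 CPM in PM, and fell by 3.24 on the log2 scale (SE 0.47, edgeR adjusted p = 3.4e-05). Scaled by no-feature counts, 2 of the 7 were called higher and 3 lower (backgrounds 92.8% and 2.50%).

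Both loci of miR-138-5p could be tested. Mir138-2 had 0.792, 1.09, 1.08, 1.80 and 0.989 CPM in vehicle and 0, 0.261 and 0.594 CPM in PM, and its log2 fold change was -2.30 (SE 0.54, edgeR adjusted p = 0.00176). Mir138-1, which gives the same miR-138-5p from chromosome 9, had 1.66, 0.362, 0.904, 0.490 and 0.659 CPM in vehicle and 0.143, 1.18 and 2.04 CPM in PM, with -0.06 (SE 0.55, edgeR adjusted p = 0.926). Its sets went opposite ways, -1.54 in the first and 1.73 in the second, a difference that passed (edgeR adjusted p = 0.00524). The difference between the loci was not tested.

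Mir9-2, the best covered source of miR-9, had 2.61, 2.81, 2.89, 1.31 and 2.64 CPM in vehicle and 0.891, 1.66 and 2.13 CPM in PM. The groups overlapped; the log2 fold change was -0.65 (SE 0.23, edgeR adjusted p = 0.0235), and it turned to 0.29 scaled by all counts of the file and to 1.64 scaled by no-feature counts, against all-gene medians of 0.89 and 2.21. Its call was also lost without PM replicate 6 (edgeR adjusted p = 0.0598), without vehicle replicate 5 (0.102), with no filter (0.0734) and in the first or second set alone (0.0886 and 0.173); over all alternatives its adjusted p ran from 6.47e-06 to 0.284. The gene that holds it, C130071C03Rik, fell by 2.87 (SE 0.15). With no filter, Mir9-1 had -0.50 and did not pass, and Mir9-3 had -1.82 (edgeR adjusted p = 0.026).

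No let-7 row passed the filter, and the 6 present were named after their values were seen. With no filter 3 were lower (background 27.4%) and 1 higher (background 27.1%) in PM. Mirlet7f-1 held 56 counts in vehicle and 3 in PM, with 1.11, 1.81, 1.17, 0.163 and 0.879 CPM in vehicle and 0, 0 and 0.143 CPM as the lowest, median and highest of PM. Mirlet7d, in an exon of the same non-coding gene 6720427I07Rik, held 3 counts in vehicle and 43 in PM, with 0.0716, 0.503 and 1.16 CPM in PM. Their log2 fold changes were -4.37 (SE 0.67, edgeR adjusted p = 1.79e-05) and 2.86 (SE 0.85, edgeR adjusted p = 0.00786). These neighbouring hairpins with a shared seed were thus called in opposite directions. Mirlet7f-1 met the count rule through vehicle alone and Mirlet7d through PM alone. Their p-values and the contrast between them therefore only describe these rows. Of the others, Mirlet7e had 41 and 20 counts, Mirlet7c-1 had 32 and 31, Mir98 had 8 and 3 and Mirlet7i had 3 and 17 in vehicle and PM.

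The largest cluster was the imprinted domain between Meg3 and Mirg on chromosome 12, whose microRNAs are expressed from the maternal allele and are abundant in brain. It held 39 of the rows, which together took 31.2 ± 2.96 counts per 1000000 gene counts in vehicle (SD, n = 5), 2.22 ± 0.926 in PM libraries of the first set and 19.8 ± 2.25 in those of the second (SD, n = 3 each). The groups did not overlap. Of 7 rows that passed the filter 0 were higher and 6 lower (backgrounds 32.7% and 36.4%). Rows that reached the filter level in no PM library, such as Mir379, had to fall. With no filter 0 of 39 were higher and 21 lower by edgeR (backgrounds 27.1% and 27.4%), 0 and 25 at an unadjusted p under 0.05, and 0 and 24 by DESeq2 (backgrounds 27.6% and 31.1%). Scaled by no-feature counts, 1 of the 7 was called higher and 2 lower (backgrounds 92.8% and 2.50%).

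Within this domain Mir379 had 1.03, 1.45, 2.08, 1.47 and 1.54 CPM in vehicle and 0, 0.0801 and 0.371 CPM in PM, with a log2 fold change of -3.80 (SE 0.54, edgeR adjusted p = 2.7e-05). Mir376a had -3.25 (SE 0.47), Mir541 -2.70 (SE 0.52) and Mir377 -1.89 (SE 0.50), all past the threshold. Mir3072, in an exon of Mirg, was the row that did not pass, with 0.41 (SE 0.57), and it was lower in the first set (-1.08) and higher in the second (2.34). The long RNAs of the domain fell less or not at all: Meg3 had -1.20 (SE 0.48, edgeR adjusted p = 0.0454), Rian -0.28 (SE 0.077) and Mirg -0.24 (SE 0.33, edgeR adjusted p = 0.535).

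Other clusters were smaller. Sfmbt2 has an intron with many near-identical hairpins that counting may split. Inside it 7 of 8 rows were lower and 0 higher with no filter by edgeR (backgrounds 27.4% and 27.1%). The counts were the same at an unadjusted p under 0.05 and by DESeq2 (backgrounds 31.1% and 27.6% for DESeq2). The 3 rows inside Htr2c, a serotonin receptor gene, were Mir764, Mir1912 and Mir1264, with 14, 23 and 12 counts in vehicle and 0 in PM. They met the count rule through vehicle alone, so these counts only describe them. Htr2c itself had 58.4 ± 15.6 CPM in vehicle (SD, n = 5) and 29.2 ± 10.1 in PM (SD, n = 6). The 3 rows inside Spaca6, Mir99b, Mirlet7e and Mir125a, held 55, 41 and 10 counts in vehicle and 19, 20 and 4 in PM.

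The sets did not show the same size of effect. In the first set 3 of the 48 rows were higher (background 32.1%) and 40 lower (background 38.9%), with a median log2 fold change of -3.85. In the second, 7 were higher (background 32.3%) and 28 lower (background 32.5%), with a median of -1.72. The interaction test found the second-set effect higher in 18 rows (background 17.5%) and lower in 0 (background 12.1%). At an unadjusted p under 0.05 these counts were 24 and 0. The count of 18 was 11 without PM replicate 2, 4 or 5 or vehicle replicate 5, each left out alone. The domain between Meg3 and Mirg gave 6 of the 18 rows, and its 7 tested rows had medians of -4.62 and -1.59 in the sets. Meg3 itself had -2.21 and 0.23 in the sets (edgeR adjusted p of the difference = 0.00611).

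**Figure D5:**
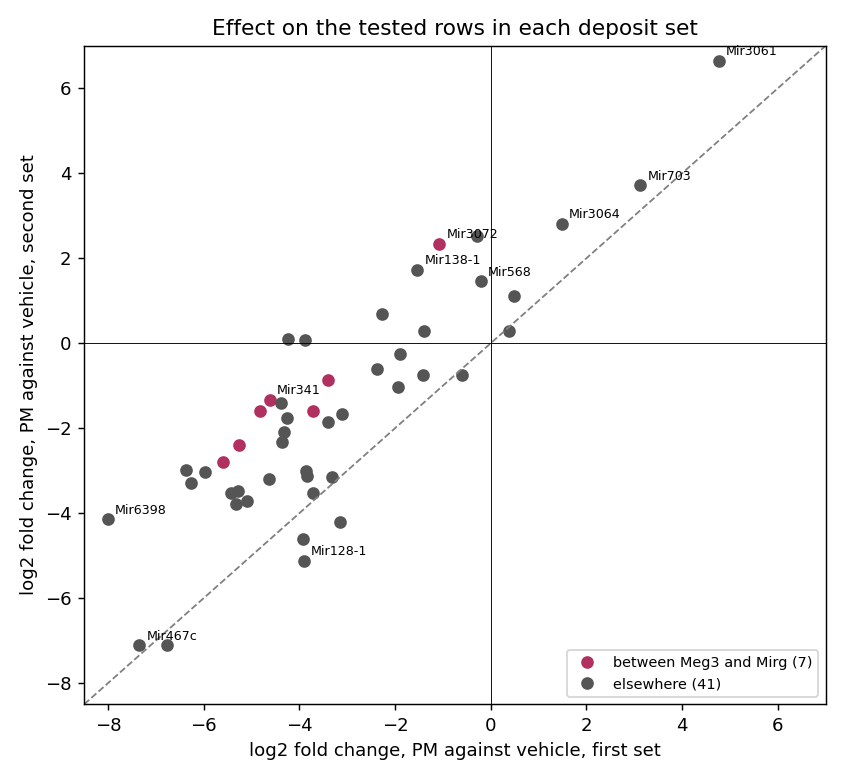
Log2 fold change of PM against vehicle in the second set (y axis) against the first set (x axis) for the 48 tested rows; the dashed line marks equal values. Most rows, and all 7 between Meg3 and Mirg, lie above the line.

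Rows of microRNAs known from vessels, blood and microglia were nearly all below the threshold, and the only one present was Mir21b with 10 counts in vehicle and 1 in PM. From the miR-17 family clusters only Mir25 was present, with 5 and 9 counts, and it did not pass with no filter.

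Genes that make and use microRNAs were taken from a list of 27 in the files, of which 26 were tested. Of these 3 were higher and 18 lower in PM (backgrounds 32.7% and 36.4%), with a median log2 fold change of -0.59, and the 21 called in either direction stand beside a background of 69.1%. Scaled by all counts of the file the counts were 14 and 6 (backgrounds 70.2% and 11.1%), and by no-feature counts 23 and 2 (backgrounds 92.8% and 2.50%), against all-gene medians of 0.89 and 2.21. Of the nuclear processing pair, Drosha fell by 0.27 (SE 0.10) and Dgcr8 by 0.41 (SE 0.14), both with overlapping groups. Xpo5, the exporter of hairpins, fell by 0.92 (SE 0.11), and Dicer1, which cuts the hairpin in the cytoplasm, went from 139.3 ± 5.27 CPM in vehicle (SD, n = 5) to 58.7 ± 13.9 in PM (SD, n = 6), a log2 fold change of -1.31 (SE 0.12). Ran, the small GTPase that works with Xpo5, rose by 1.35 (SE 0.095), and the Dicer partners Tarbp2 and Prkra rose by 1.00 (SE 0.23) and 0.88 (SE 0.15).

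The Argonautes were unequal. Ago2, the member with slicer activity, went from 236 ± 8.67 CPM in vehicle (SD, n = 5) to 36.1 ± 6.63 in PM (SD, n = 6), and Ago3 from 106.5 ± 7.13 to 10.9 ± 3.23. Their log2 fold changes were -2.71 (SE 0.12) and -3.29 (SE 0.18), with edgeR adjusted p-values of 1.66e-09 and 5.19e-09 and no overlap of the groups. Ago1 fell by 0.70 (SE 0.081), and Ago4 had -0.20 (SE 0.12) and did not pass. Of the GW182 proteins that Argonautes recruit, Tnrc6b fell by 2.02 (SE 0.12), Tnrc6c by 0.87 (SE 0.20) and Tnrc6a by 0.62 (SE 0.15). Of the enzymes that add bases to RNA ends, Zcchc11 fell by 1.88 (SE 0.14), Papd4 by 1.68 (SE 0.11) and Zcchc6 by 1.11 (SE 0.086). Adar, Ago4, Ddx5, Khsrp and Srrt did not pass.

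Small nucleolar and Cajal body RNA rows, which also mostly lie in introns, were set beside the microRNA rows. Of 119 such rows 15 passed the filter, with 5 higher and 7 lower (backgrounds 32.7% and 36.4%) and a median log2 fold change of -0.76. With no filter 10 of 103 were higher and 27 lower (backgrounds 27.1% and 27.4%), so the share called lower was near that of all rows. These rows and the background rows needed only some count, while the microRNA rows needed at least 10. The shares of the 2 kinds of rows are therefore not on equal terms. The call counts by direction of the tested rows were 6 and 5 scaled by all counts of the file (backgrounds 70.2% and 11.1%) and 9 and 4 scaled by no-feature counts (backgrounds 92.8% and 2.50%). Scarna13 had the largest fall, from 65.1 CPM in vehicle to 0.325 in PM, a log2 fold change of -7.70 (SE 0.30). Snord96a rose most, by 2.74 (SE 0.48). The difference between these rows and the microRNA rows was not tested.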

How the data were processed

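RNA sequencing of hippocampus gave 11 count files, 1 per library. Per the submitters' processing notes, the authors' tools were FastQC 0.11.9, Trimmomatic 0.36, STAR, SAMtools 1.9, Picard 2.9.2 and HTSeq 0.9.1, with mm10 and hg19 named as builds; the deposited values are unnormalized counts per gene symbol. Strand setting and annotation are not given in the sources used here. The labels' extract protocol removes ribosomal RNA, while their molecule field names polyA RNA. HTSeq summary rows, including counts with no feature, entered no library size and no test in the fits reported as the result; they served as library size in 2 alternative scalings, and the no-feature share itself was compared between groups.

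Counts were fitted with edgeR 4.0.16 in R 4.3.3 (filterByExpr, minimum count 10, TMM, robust quasi-likelihood, deposit set as covariate), with Benjamini-Hochberg adjustment over all 14982 genes. Set effects came from a joint fit. DESeq2 1.42.0, other scalings, no filter, a replicate block, each set alone and leaving out each library were alternatives. The exact permutation test was the two-sided one of scipy 1.17.1. Tested on simulated data with counts in the range of these rows (14791 genes), the edgeR fit recovered 24 of 100 genes changed 2-fold and 78 of 100 changed 4-fold, with 8 false calls. Only these genes were changed, as many up as down, while 69.1% of genes were called in the data. Recovery and false calls at such a share were not simulated. Counting intervals and floors (95%, 3 counts) cover counting error only. Hairpins were placed by RefSeq symbol (246) or GENCODE M21 (50).

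The members and lists were chosen with earlier results of these data known. Named rows were the 10 of highest mean CPM, the rises and the 10 largest falls past the threshold, tested rows of the lists, clusters of at least 3 rows within 10000 bases, and the neighbours of the count threshold.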

Additional observations from a re-analysis of the deposited data

Results flagged for a closer look

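Among 58 groups of libraries checked for a library far from the others, 5 were flagged, where chance flags about 1 in 20. Vehicle replicate 4 stood apart for 3 rows, low for Mir9-2 (1.31 CPM) and high for Mir466p (2.45 CPM) and Mir218-2 (2.12 CPM); it was the shallowest library. Vehicle replicate 1 was the only vehicle library with Mir3061 (0.158 CPM), and PM replicate 6 had the highest PM level of Mir7669 (0.266 CPM).

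The effect of PM differed between the deposit sets for 6 of the 27 named rows by the interaction test, in each case higher in the second set. The differences on the log2 scale were 1.67 for Mir568, 2.11 for Mir1188, 3.29 for Mir341, 1.64 for Mir99a, 3.37 for Mir6352 and 3.27 for Mir138-1.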

How the results depend on the processing

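Depth limited the rows: 248 of 296 were too low for the filter, and the filter itself set most of the count of calls. The count of 40 called rows (background 69.1%) became 173 by DESeq2 and 181 with no filter, where more rows were tested. Over all genes 11099 were called by DESeq2 and 11184 with no filter. Rows called higher were 3 of 48 (background 32.7%), and became 8 of 48 scaled by all counts of the file (background 70.2%). By no-feature counts, a scaling chosen after seeing the data, they were 14 of 48 (background 92.8%). DESeq2 gave 13 of 296 (background 27.6%) and the fit with no filter 16 of 296 (background 27.1%). The second set alone gave 10, where 9954 genes were called in either direction. Rows called lower were 37 (background 36.4%), and became 29 by all counts of the file (background 11.1%) and 21 by no-feature counts (background 2.50%). They were 160 by DESeq2 (background 31.1%) and 165 with no filter (background 27.4%). Small nucleolar and Cajal body rows called were 12 (background 69.1%), and became 33 by DESeq2, 37 with no filter and 7 in the second set alone. Rows that differed between sets were 18, and 35 with no filter, where 2060 of all 20519 rows were called in that direction. Reversed values were those of Mir9-2 scaled by all counts of the file (0.29) and by no-feature counts (1.64), of Mir99a (1.11) and Mir138-1 (2.14) by no-feature counts, and of Mir138-1 in the second set alone (1.74). Apart from the counts of tested rows, the cause was not tested. The median of all genes moved to 0.89 by all counts, 2.21 by no-feature counts and -0.13 by DESeq2.

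Leaving out 1 library gave 9882 to 10197 called genes, 35 to 47 called microRNA rows (2 to 4 higher, 33 to 43 lower), 18 to 21 called biogenesis genes, 9 to 13 small nucleolar rows, 11 to 20 rows that differed between sets and 78.0% to 85.7% of rows below their host. Replicate numbers did not pair the libraries (deviation correlations of 0.00731, -0.0283, -0.139, -0.189 and -0.141). With the replicate block 37 rows were called, 3 higher and 34 lower, and Mir99a did not pass (edgeR adjusted p = 0.0604). Over the 27 named rows and 20 alternatives, 525 of 540 pairs had a value; in the other 15 the row did not pass the filter of that fit. Of the values 502 kept their call, 13 lost it (5 of them Mir9-2 and 4 Mir99a), 5 gained it and 5 reversed.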
